A study of Sus scrofa with 27 samples.

Results

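The genes described here are 10 macrophage genes of the pig lung, namely the scavenger and endocytic receptors CD163, MARCO, MSR1, MRC1, SIGLEC1 and CD68, the complement receptor VSIG4, and the C1q chains C1QA, C1QB and C1QC. They were chosen by name from the deposited gene count table and were kept if at least 1 library held 10 or more counts. All 10 were found among 31908 genes, none was dropped, and all 10 passed the filter on low counts in every comparison.

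The libraries come from Large White pig lungs kept on ex vivo lung perfusion (EVLP), a procedure in which an isolated lung is ventilated and perfused outside the body before transplantation. The donors were non-heart-beating, the lungs were stored cold before perfusion, and both groups received an acellular Steen solution with heparin, an antibiotic and methylprednisolone, a synthetic glucocorticoid. In the gold standard (GS) group, with 5 pigs numbered 9, 17, 44, 55 and 77, part of the perfusate was exchanged for fresh solution at intervals. In the pediatric dialysis (PD) group, with 4 pigs numbered 2, 3, 4 and 5, the perfusate was instead run continuously over a pediatric hemodialysis membrane. Each lung was biopsied at 0h, at the end of cold ischemia and before perfusion, and then at 6h and 12h of EVLP, which gives 27 libraries of whole lung tissue. A perfused lung receives no new blood cells, so each series of biopsies follows the cells that the organ held when it was removed.

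Scavenger receptors are surface proteins by which macrophages bind and take up modified lipoproteins, microbes and debris. CD163 takes up the complex of haptoglobin and free hemoglobin, MARCO and MSR1 are class A scavenger receptors, and MRC1 is the mannose receptor. SIGLEC1 binds sialic acid and is a gene that type I interferon induces, CD68 is a glycoprotein of late endosomes and lysosomes, and VSIG4 is a receptor for fragments of complement C3. C1QA, C1QB and C1QC encode the chains of C1q, the recognition part of the C1 complex that starts the classical pathway of complement, and tissue macrophages are a main source of it. In the lung, MARCO is known as a receptor of alveolar macrophages, which clear inhaled particles.

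On the Sscrofa11.1 assembly, the 3 chains of C1q stand next to each other on the plus strand of chromosome 6, with C1QA at 80586280 to 80589939, C1QC at 80592478 to 80597459 and C1QB at 80601665 to 80607471. Their upstream sequences are shown because the levels of these chains moved together over the libraries. Each is the 250 bases before the start of the RefSeq gene on Sscrofa11.1, plus strand, with the core motif of PU.1, a transcription factor of macrophages, in capitals. The motif searched was GAGGAA on both strands, so TTCCTC is its reverse complement. The windows are chr6:80586009-80586258 for C1QA, chr6:80592341-80592590 for C1QC and chr6:80601430-80601679 for C1QB.
C1QA: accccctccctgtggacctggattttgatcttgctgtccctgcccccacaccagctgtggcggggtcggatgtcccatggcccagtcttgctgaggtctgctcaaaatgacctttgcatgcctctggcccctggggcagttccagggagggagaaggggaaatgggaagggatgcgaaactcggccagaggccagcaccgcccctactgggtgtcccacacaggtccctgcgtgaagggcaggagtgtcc
C1QC: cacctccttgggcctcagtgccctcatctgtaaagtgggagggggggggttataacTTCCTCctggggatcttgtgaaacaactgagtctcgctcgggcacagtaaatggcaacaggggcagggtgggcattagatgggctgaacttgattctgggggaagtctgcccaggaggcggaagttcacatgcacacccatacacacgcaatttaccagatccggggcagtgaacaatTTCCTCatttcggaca
C1QB: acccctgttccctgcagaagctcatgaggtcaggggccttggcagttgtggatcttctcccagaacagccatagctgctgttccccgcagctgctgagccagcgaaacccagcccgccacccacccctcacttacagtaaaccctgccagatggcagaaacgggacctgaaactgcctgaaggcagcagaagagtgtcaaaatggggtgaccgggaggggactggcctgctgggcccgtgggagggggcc
The core was present in 3 of the 10 members, against 22% of 19563 promoters of the same length. C1QC held it 194 and 16 bases before the RefSeq start, MRC1 held 3 matches and VSIG4 held 1. The RefSeq starts of C1QC (80592591) and MRC1 (44107926) lie inside these genes by the coordinates given in this text, 80592478 and 44107072. By those coordinates the C1QC match 16 bases before the RefSeq start and the matches of MRC1 are inside the genes. The AP-1 letters TGANTCA were found in CD68 alone among the members, at 2 places, and in 5.26% of all promoters. No member held the palindrome of the glucocorticoid receptor (GNACA and TGTNC with 3 bases between them), which 0.22% of promoters held.

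Total counts ran from 26335584 to 67522703 per library in the GS group and from 14650700 to 21820935 in the PD group, so group and depth cannot be told apart. Within the GS group, pigs 9 and 17 had 26335584 to 41802541 counts and pigs 44, 55 and 77 had 51708598 to 67522703. The PD pig 2 library at 12h stood apart, with the lowest total and the steepest trend with exon length. Relative to each gene's mean over all libraries, its log2 CPM fell by 1.91 units per 10-fold of exon length. By the same measure, the slopes of the other PD libraries ran from −1.18 to −0.05 and those of the GS libraries from 0.12 to 0.90. Values at 12h without the PD pig 2 library are given beside several of the results. All 8 markers of lung epithelium were detected, and their summed level was 8102 to 10730 CPM (counts scaled to the TMM-normalised library size) in the GS group and 27470 to 77980 CPM in the PD group at 0h. In the comparison of levels at 0h given below, SFTPC was called higher in the PD group (log2 difference 3.56) and SFTPB lower (−1.35). The median log2 difference of the 8 markers was 0.35. Markers of neutrophils, 5 of 8 in the table, summed to 123 to 370 CPM in the GS group and to 602 to 1226 CPM in the PD group at 0h. Of these 5, S100A8 (log2 difference 3.27) and S100A12 (2.29) were called higher in the PD group and CSF3R (−1.36) lower. Their median log2 difference was −0.13. The 18 of 22 other macrophage lineage genes in the table summed to 3396 ± 441 CPM (SD, n = 5) and 3476 ± 365 CPM (SD, n = 4) at 0h, and none of these lists held a gene under 3 counts in total.

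The 10 members were among the well-expressed genes of the lung, with 392 to 141110 counts per library. At 0h they took 0.662% of all counts in the GS group and 0.383% in the PD group. These shares were 0.592% and 0.296% at 12h. Per kilobase of exon, the levels of the GS group at 0h ran from C1QB (1024 ± 359 CPM per kb), C1QC (864 ± 321), C1QA (563 ± 242) and MARCO (556 ± 262) through CD68 (249 ± 88.2), CD163 (141 ± 34.2), VSIG4 (62.9 ± 24.9) and MRC1 (36.8 ± 18.5) to SIGLEC1 (20.4 ± 9.90) and MSR1 (12.7 ± 3.06; SD, n = 5). In that order, only CD163 and VSIG4 stood apart by more than their SDs, and the other neighbours overlapped. In the PD group at 0h, C1QC led with 819 ± 180 CPM per kb, ahead of C1QB with 420 ± 133, MARCO with 359 ± 110 and C1QA with 354 ± 88.3 (SD, n = 4). CD68 took the seventh place there, with 65.1 ± 26.99 CPM per kb, against the fifth place in the GS group. The steps that exceeded the SDs in the PD group were from C1QC to C1QB, from C1QA to CD163 and from MRC1 to SIGLEC1.

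**Figure D1:**
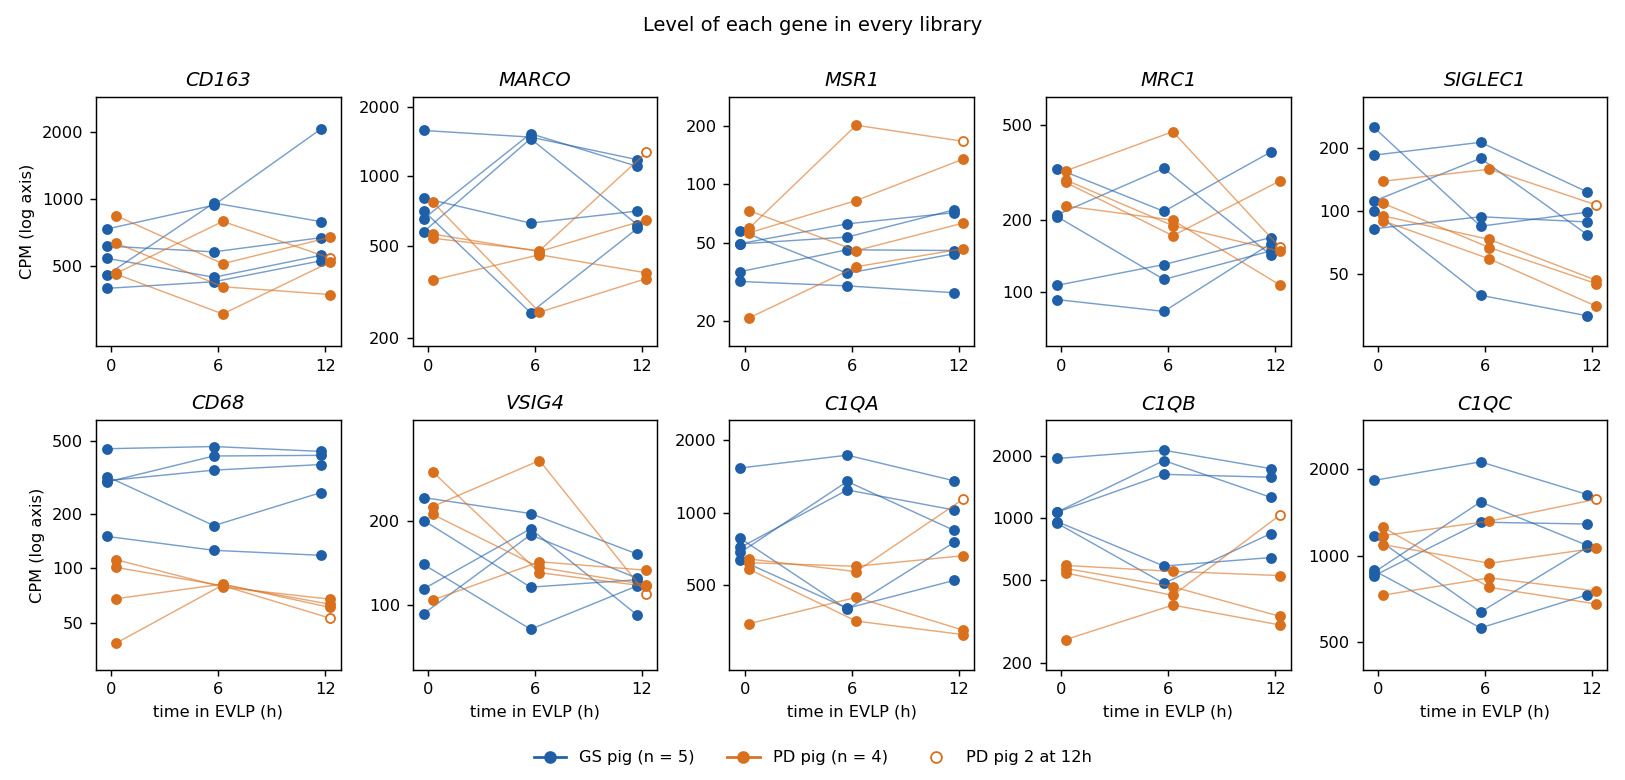
CPM of each member (log axis) in each of the 27 libraries by group and time, with lines joining the biopsies of a pig and an open point for the PD pig 2 library at 12h. The CD68 points of the PD group lie between 38.7 and 111.5 CPM, below all GS points, while those of CD163 and C1QC overlap between the groups.

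The first question was which members changed during perfusion in each group. With edgeR's quasi-likelihood test and the pig as a block, a call required a fold change of 2 or more as well as an adjusted p under 0.05. No member was called in the GS group at 6h, where 11.1% of 18594 genes were called, nor at 12h, where 15.7% were. No member was called in the PD group at 6h, where 0.142% of 15545 genes were called, nor at 12h, where 5.98% were. These PD counts over all genes moved when a pig was left out. The 22 genes called at 6h were 98 without pig 2 and 0 without pig 3, 4 or 5. The 930 called at 12h were 3826 without pig 2, 399 without pig 4 and 0 without pig 3 or 5. The values of the pig left out and the smaller number of pigs cannot be told apart here. DESeq2 called no member in any of these 4 comparisons either, which share the 0h biopsies within a group. An unadjusted p under 0.05 was reached by 0 members in the GS group at 6h, by CD163 and SIGLEC1 at 12h, by 0 in the PD group at 6h and by SIGLEC1 at 12h. Over all genes it was reached by 7653 and 9014 of 18594 in the GS group and by 1463 and 3812 of 15545 in the PD group. The members' median log2 fold change was −0.02 at both times in the GS group, and −0.18 at 6h and −0.16 at 12h in the PD group, where the median of all genes was −0.05, −0.08, −0.02 and −0.05, in the same order.

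**Figure D2:**
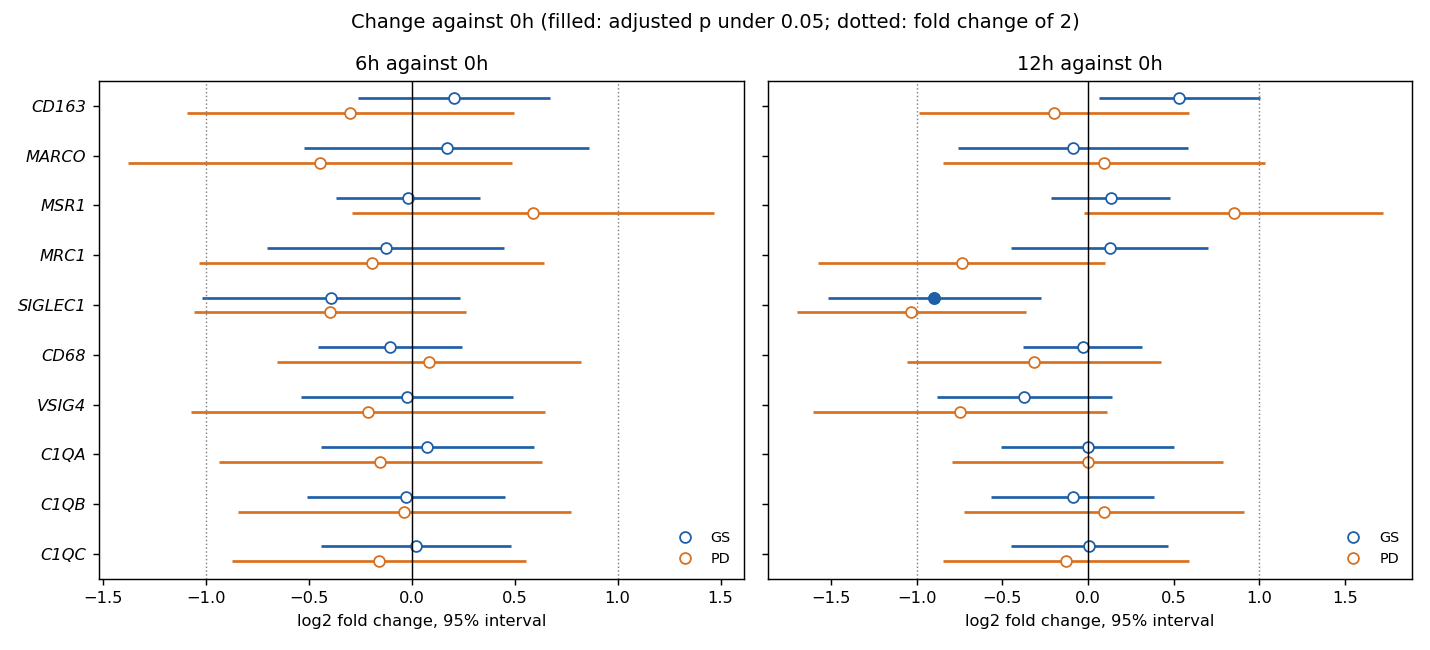
Log2 fold change against 0h with its 95% confidence interval for each member at 6h and 12h, GS and PD groups side by side (filled: adjusted p under 0.05; dotted lines: fold change of 2). The intervals of SIGLEC1 at 12h lie below 0 in both groups, and the interval of CD163 at 12h lies above 0 in the GS group.

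SIGLEC1 (ENSSSCG00000007146, chromosome 17, 31994540 to 32021466, plus strand) was lower at 12h than at 0h in 4 of 5 GS pigs and in 4 of 4 PD pigs. At 0h the GS pigs 9, 17, 44, 55 and 77 had 99.1, 250.3, 184, 81.9 and 111 CPM. At 12h they had 31.4, 98.3, 123, 88.25 and 76.7 CPM. Pig 55 was the only GS pig with a higher value at 12h, and the ranges of both times overlapped. The PD pigs 2, 3, 4 and 5 had 138, 89.55, 109 and 94.5 CPM at 0h and 106, 34.9, 44.75 and 46.5 CPM at 12h. Only pig 2 at 12h reached the range of 0h.

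The log2 fold change of SIGLEC1 at 12h was −0.90 in the GS group (95% confidence interval −1.52 to −0.27, adjusted p = 0.0266), a fold change of 1.86 that passed the adjusted p but not the fold threshold. In the PD group it was −1.03 (interval −1.70 to −0.36, adjusted p = 0.0676), 2.04-fold lower, which passed the fold but not the adjusted p. Over the alternatives, the sign stayed negative in 15 of 15 for the GS group, with adjusted p from 0.0154 to 0.236, and in 13 of 13 for the PD group, with adjusted p from 0.012 to 0.399. Without GS pig 55 the GS value was −1.13 (adjusted p = 0.0232), and without the PD pig 2 library at 12h the PD value was −1.15 (adjusted p = 0.016), which both met the 2 thresholds. In these fits 2191 of 18423 and 4161 of 15875 genes were called, against 2911 of 18594 and 930 of 15545 in the fits over all pigs of a group, so the gain in the PD group came with more calls over all genes. In the GS pigs 9 and 17 alone the change at 12h was −1.51 (adjusted p = 0.0154), and in pigs 44, 55 and 77 alone it was −0.31 (adjusted p = 0.236). At 6h SIGLEC1 changed by −0.39 in the GS group (adjusted p = 0.334) and by −0.40 in the PD group (adjusted p = 0.662). In the GS pigs 9 and 17 alone it changed by −1.44 at 6h (adjusted p = 0.0221), past both thresholds, and in pigs 44, 55 and 77 alone by 0.38 (adjusted p = 0.174). With pigs 9 and 17 alone, 876 of 17339 genes were called at 6h and 1324 of 17339 at 12h.

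In bulk tissue, fewer cells that carry SIGLEC1 and less SIGLEC1 RNA per cell cannot be told apart. The 6 markers of T and NK cells summed to 339 ± 91.2 CPM at 0h and 221 ± 89.1 CPM at 12h in the GS group (SD, n = 5), and to 205 ± 51.4 and 135 ± 17.2 CPM in the PD group (SD, n = 4). The 4 markers of B cells summed to 87.0 ± 38.3 and 62.3 ± 28.0 CPM in the GS group and to 77.9 ± 27.2 and 31.5 ± 10.2 CPM in the PD group. The 4 of 6 markers of dendritic cells in the table summed to 57.99 ± 6.75 and 37.6 ± 6.97 CPM in the GS group, where the ranges did not overlap, and to 49.2 ± 5.97 and 22.8 ± 2.97 CPM in the PD group, where they did not overlap either. The other macrophage lineage genes summed to 3396 ± 441 and 4016 ± 848 CPM in the GS group and to 3476 ± 365 and 3432 ± 1951 CPM in the PD group. The PD sums at 12h ran from 2159 to 6314 CPM. The median log2 fold change of this list there was −0.46, against −0.05 for all genes. The interstitial or perivascular macrophage genes summed to 1284 ± 75.5 and 1290 ± 110.5 CPM in the GS group. In the PD group they summed to 1765 ± 576 and 1305 ± 260 CPM, with overlapping ranges. The alveolar macrophage genes (1481 and 1483 CPM in the GS group, 1656 and 1816 CPM in the PD group) and the markers of classical monocytes (289 and 273 CPM, 359 and 379 CPM) were not lower at 12h by more than their SDs. The part of these cell types in the SIGLEC1 values was not tested.

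CD163 (ENSSSCG00000033146, chromosome 5, 63300146 to 63334498, plus strand) was higher at 12h than at 0h in 5 of 5 GS pigs. Pigs 9, 17, 44, 55 and 77 had 734, 456, 615, 397 and 542 CPM at 0h and 2065, 792.5, 671, 528 and 558.5 CPM at 12h. Pig 9 at 12h was more than any other library of the series, and in pigs 44 and 77 the step was small. The fitted log2 fold change was 0.53 (interval 0.06 to 1.003, adjusted p = 0.0687), positive in 15 of 15 alternatives with adjusted p from 0.0224 to 0.275. It was 1.17 in pigs 9 and 17 alone (adjusted p = 0.0647) and 0.19 in pigs 44, 55 and 77 alone (adjusted p = 0.275).

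In the PD group CD163 moved in both directions. Pigs 2, 3, 4 and 5 had 464, 460, 843 and 635 CPM at 0h, 794, 304.5, 512.5 and 404 CPM at 6h, and 544, 520, 673 and 372 CPM at 12h. The log2 fold change was −0.30 at 6h (adjusted p = 0.765) and −0.20 at 12h (adjusted p = 0.78), with 2 of 4 pigs lower at 12h. Pig 2 was the only PD pig that was higher at 6h, by 0.78 log2 units.

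MSR1 (ENSSSCG00000006979, chromosome 17, 3857171 to 3939726, minus strand) had the lowest level per length of the members in both groups at 0h, and its largest fitted difference between times was in the PD group. Pigs 2, 3, 4 and 5 had 59.9, 73.4, 56.6 and 20.8 CPM at 0h, 200.7, 45.9, 82.8 and 38.0 CPM at 6h, and 166, 63.4, 135 and 47.0 CPM at 12h. Pigs 2, 4 and 5 were higher at 12h and pig 3 was lower. The log2 fold change was 0.59 at 6h (adjusted p = 0.641) and 0.85 at 12h (interval −0.02 to 1.72, adjusted p = 0.215), positive in 13 of 13 alternatives with adjusted p from 0.0448 to 0.633, and 0.86 without the PD pig 2 library at 12h. In the GS group MSR1 ran from 31.9 to 58.1 CPM at 0h and from 28.0 to 74.2 CPM at 12h, with a log2 fold change of 0.13 (adjusted p = 0.539). A gene that overlaps MSR1 on the genome held 278 counts over all libraries, against 54722 for MSR1.

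MARCO (ENSSSCG00000015716, chromosome 15, 24503108 to 24541353, plus strand) had a wide spread between pigs. The GS pigs 9, 17, 44, 55 and 77 had 806.5, 710, 1580, 657 and 577 CPM at 0h, 629, 258, 1479, 1531 and 1456 CPM at 6h, and 709, 597, 1181, 1105 and 618.5 CPM at 12h. At 6h the values fell into a low pair, pigs 9 and 17, and a high trio. The PD pigs 2, 3, 4 and 5 had 541, 777, 356 and 564 CPM at 0h, 478, 259, 459 and 474 CPM at 6h, and 1269, 362, 383 and 651 CPM at 12h. At 12h pig 2 was the highest of the PD libraries by a wide margin. The log2 fold change against 0h was 0.17 and −0.08 in the GS group and −0.44 and 0.10 in the PD group at 6h and 12h, with adjusted p of 0.715 or more. Without the PD pig 2 library at 12h, the PD value at 12h was −0.29.

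MRC1 (ENSSSCG00000011038, chromosome 10, 44107072 to 44244410, plus strand) and VSIG4 (ENSSSCG00000035170, chromosome X, 52175605 to 52198621, minus strand) had negative log2 fold changes in the PD group at 12h that did not pass the test, MRC1 −0.74 (adjusted p = 0.262) and VSIG4 −0.75 (adjusted p = 0.267). Both were negative in 13 of 13 alternatives, with adjusted p from 0.104 to 0.685 and from 0.109 to 0.703. Without the PD pig 2 library at 12h they were −0.54 and −0.56. MRC1 in pigs 2, 3, 4 and 5 was 322, 294, 287.5 and 229 CPM at 0h and 155, 149, 291 and 108 CPM at 12h. Pig 4 stayed at its level and the other 3 pigs were lower. VSIG4 was 226, 302, 104 and 212 CPM at 0h and 110, 117, 133 and 118 CPM at 12h, with pig 4 as the only pig that was higher. In the GS group MRC1 changed by 0.13 (adjusted p = 0.723) and VSIG4 by −0.37 (adjusted p = 0.228) at 12h. CD68 (ENSSSCG00000017956, chromosome 12, 52874785 to 52877695, plus strand) changed by −0.11 at 6h and −0.03 at 12h in the GS group and by 0.08 and −0.32 in the PD group, with adjusted p of 0.609 or more.

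The C1q chains C1QA (ENSSSCG00000003524), C1QB (ENSSSCG00000033512) and C1QC (ENSSSCG00000038706) had fitted changes within 0.16 log2 units of 0 at both times in both groups. The values behind these small means were far apart. C1QA in the GS pigs 9, 17, 44, 55 and 77 was 637, 784, 1536, 719 and 685 CPM at 0h, 402, 398, 1736, 1245 and 1351 CPM at 6h, and 525, 754, 1359, 1028 and 846 CPM at 12h. Pigs 9 and 17 were lower at 6h than at 0h, and pigs 44, 55 and 77 were higher. In the PD pigs 2, 3, 4 and 5 C1QA was 643, 583, 347 and 621 CPM at 0h, 571, 356, 446 and 600.3 CPM at 6h, and 1139, 312.5, 326 and 664 CPM at 12h. Pig 2 at 12h was above the other PD libraries, and without it the log2 fold change of C1QA at 12h was −0.33 in place of −0.00. That of C1QB was −0.31 in place of 0.09, and that of C1QC was −0.27 in place of −0.13.

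The split of the GS pigs at 6h was seen in other members. MSR1, SIGLEC1, CD68, C1QA, C1QB and C1QC were lower than at 0h in both pigs 9 and 17 and higher in all of pigs 44, 55 and 77, and no member had the reverse pattern. Over all genes, 13.6% of 18594 were split between these sets of pigs in either direction and 6.12% in the direction of the 6 members. The sets were noticed after the values were seen and are those of lower and higher total counts, so pig, depth and processing of the libraries cannot be told apart. With pigs 44, 55 and 77 alone, the log2 fold change at 6h was 0.65 for C1QA (adjusted p = 0.0216), 0.55 for C1QC (0.0347), 0.52 for C1QB (0.046) and 0.82 for MARCO (0.0467), all under the fold threshold. With pigs 9 and 17 alone it was −0.80, −0.76, −0.82 and −0.87, with adjusted p from 0.053 to 0.102. With the fold threshold, 2760 of 18919 genes were called in the fit of pigs 44, 55 and 77, and 876 of 17339 in that of pigs 9 and 17. The share of all genes under the adjusted p alone is not given here. Because the sets were noticed from the values, these adjusted p are descriptions only. For C1QA the adjusted p over all alternatives ran from 0.0216 to 0.946, for C1QC from 0.0347 to 0.964, for C1QB from 0.046 to 0.996 and for MARCO from 0.0467 to 0.891. The difference between the sets of pigs was not tested. At 12h the mean log2 ratio to 0h of the 3 chains ran from −0.37 to −0.17 in pigs 9 and 17 and from 0.21 to 0.25 in pigs 44, 55 and 77.

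**Figure D3:**
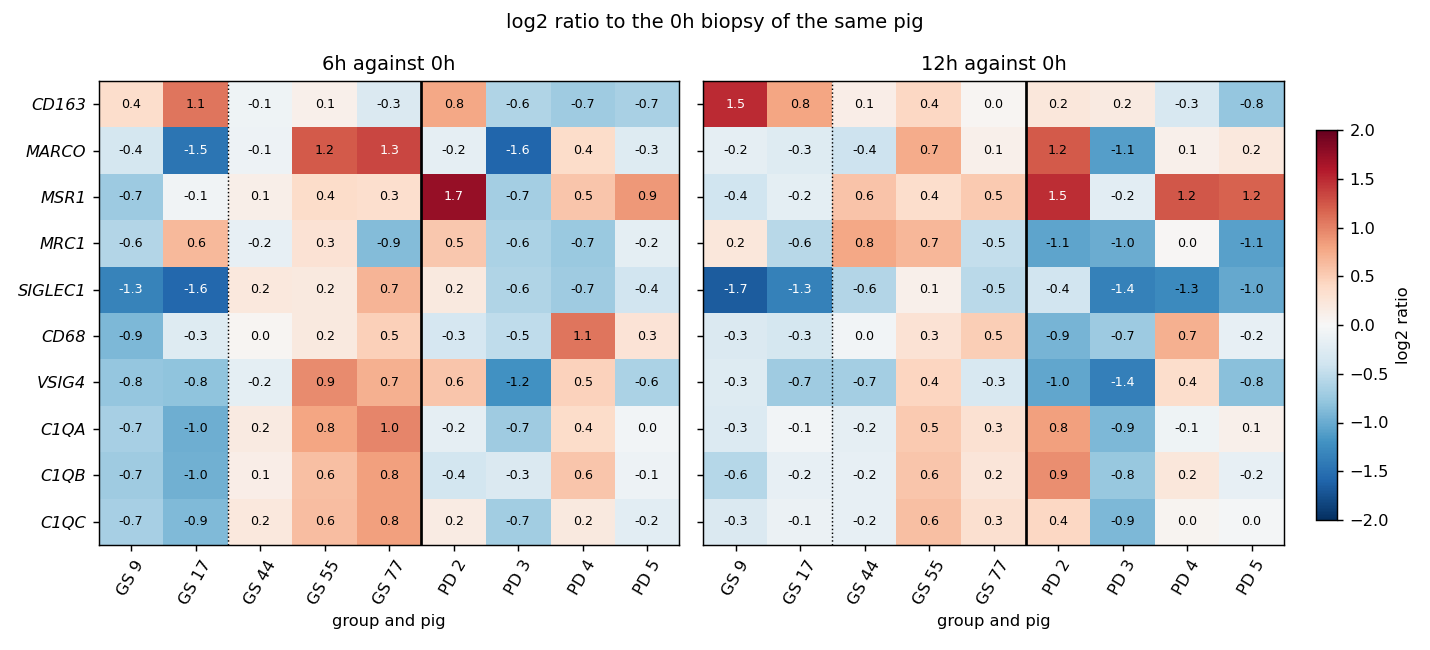
Log2 ratio to 0h of each member in each pig at 6h and 12h, on a blue to red colour scale, with the GS pigs left and the PD pigs right. At 6h the C1q chains are below 0 in GS pigs 9 and 17 and above 0 in GS pigs 44, 55 and 77.

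Between 6h and 12h no member was called in the GS group, where 0% of 18594 genes were called, nor in the PD group, where 0% of 15545 genes were called. No member reached an unadjusted p under 0.05 in either group, where 882 and 1562 genes did, and DESeq2 called 0 members and 5 and 203 genes. The fold changes of the members ran from −0.50 (SIGLEC1) to 0.33 (CD163) in the GS group and from −0.64 (SIGLEC1) to 0.54 (MARCO) in the PD group. SIGLEC1, CD68 and VSIG4 were lower at 12h than at 6h in 4 of 4 PD pigs. No share of all genes with this pattern is given here, so it is a description only.

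The next question was whether the change from 0h differed between the groups, tested as the interaction of group and time over all 27 libraries. No member was called at 6h, where 0% of 17884 genes were called, or at 12h, again with 0% called. Without PD pig 2, 254 and 153 of 18568 genes were called, with 0 members among them. No member had an unadjusted p under 0.05 at either time, where 1046 and 1069 genes did, and DESeq2 called 0 members and 9 and 17 genes. Exact Wilcoxon and exact permutation tests of the log2 ratios per pig, with no adjustment, passed 0.05 for 0 members at either time, where 1059 and 675 of 17884 genes (Wilcoxon) and 1762 and 1025 (permutation) did at 6h and 12h. The largest differences among members at 12h, PD minus GS, were −0.89 for MRC1 (adjusted p = 0.855), −0.76 for CD163 (interval −1.58 to 0.06, adjusted p = 0.857) and 0.69 for MSR1 (adjusted p = 0.875), each with the same sign in 15 of 15 alternatives. SIGLEC1 differed by −0.16 (adjusted p = 0.978). These 4 adjusted p ran from 0.141 to 1 over the alternatives. Without the PD pig 2 library at 12h the differences of MRC1, CD163 and MSR1 were −0.68, −0.69 and 0.72. The 95% interval of CD163 holds both no difference and a PD change that is less than the GS change by more than 1 log2 unit.

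The levels of the PD and GS groups were then compared at each time. At 0h, before any dialysis, 2 members were called, CD68 and C1QB, both lower in the PD group, where 40.6% of 16477 genes were called in either direction. At 6h 3 members were called, CD68, C1QB and MARCO, all lower in the PD group, where 24.3% of 16201 genes were called. When a pig was left out, the genes called at 6h ran from 1846 of 17248 (without PD pig 2) to 4332 of 15810 (without GS pig 17). At 12h CD68 alone was called, lower in the PD group, where 20.1% of 16431 genes were called. Here the genes called ran from 1958 of 15623 (without GS pig 44) to 4982 of 16925 (without PD pig 2). The share of members called was thus 2, 3 and 1 of 10 at the 3 times, which is below or near that of all genes. The groups did not overlap for CD68 and C1QB at 0h, against 34.2% of all genes, for CD68 at 6h, against 21.2%, and for CD68 at 12h, against 21.2%. The members' median log2 difference, PD minus GS, was −0.21, −0.44 and −0.40 at 0h, 6h and 12h, where that of all genes was 0.00, −0.07 and −0.01.

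**Figure D4:**
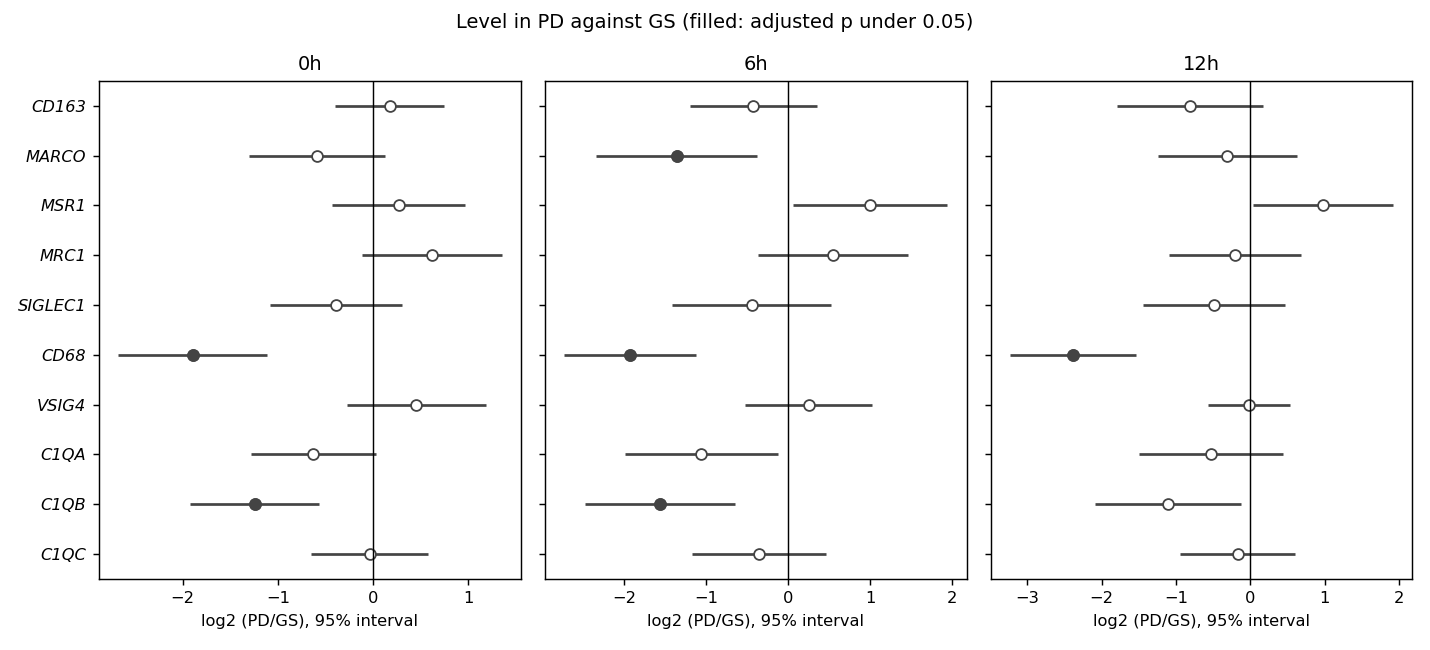
Log2 difference in level, PD minus GS, with its 95% confidence interval for each member at 0h, 6h and 12h (filled: adjusted p under 0.05). The CD68 intervals lie below 0 at each time, and the C1QC intervals include 0 at each time.

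CD68 was the member that differed most. The GS pigs 9, 17, 44, 55 and 77 had 320, 150, 455, 303 and 298 CPM at 0h, 172, 125.5, 467, 347 and 415 CPM at 6h, and 261, 118, 439, 372 and 418 CPM at 12h. The PD pigs 2, 3, 4 and 5 had 101, 111.5, 38.7 and 67.95 CPM at 0h, 80.2, 78.7, 80.95 and 81.8 CPM at 6h, and 53.2, 67.6, 63.4 and 60.9 CPM at 12h. Every PD library was below every GS library. CD68 was 3.72-fold lower in the PD group at 0h (log2 −1.89, adjusted p = 0.00146), 3.80-fold lower at 6h (−1.93, adjusted p = 0.00427) and 5.22-fold lower at 12h (−2.38, adjusted p = 0.00265). Pig 17 was the lowest GS pig at each time, and against pigs 9 and 17 alone the difference was −1.56 (adjusted p = 0.0458), −0.90 (0.125) and −1.62 (0.14). In these fits 2321 of 16303, 1096 of 16288 and 0 of 15647 genes were called at 0h, 6h and 12h. The lost call at 12h thus says nothing about CD68. Over all alternatives the adjusted p ran from 2.27e-06 to 0.0458 at 0h, from 2.25e-05 to 0.125 at 6h and from 1.06e-07 to 0.14 at 12h, and the sign was negative in each.

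C1QB had 960, 942, 1935, 1065 and 1067 CPM at 0h in GS pigs 9, 17, 44, 55 and 77, and 542, 569, 259 and 589 CPM in PD pigs 2, 3, 4 and 5. At 6h the GS pigs had 585, 483, 2121, 1623 and 1891 CPM and the PD pigs 422, 465, 379 and 552 CPM. Every PD library was below every GS library at 0h, and at 6h pig 17 of the GS group was within the PD range. C1QB was 2.37-fold lower in the PD group at 0h (log2 −1.24, adjusted p = 0.0071) and 2.95-fold lower at 6h (−1.56, adjusted p = 0.0198). At 12h it was −1.11 (adjusted p = 0.103), and −1.63 (adjusted p = 0.00765) without the PD pig 2 library. The call at 6h was lost without PD pig 2 (−1.51, adjusted p = 0.0709) or PD pig 4 (−1.48, 0.0515). Against GS pigs 9 and 17 alone it was −0.96 (adjusted p = 0.113) at 0h and −0.24 (0.736) at 6h, where 2321 of 16303 and 1096 of 16288 genes were called. Over the alternatives the adjusted p ran from 0.000367 to 0.113 at 0h, from 0.00171 to 0.736 at 6h and from 0.00216 to 0.758 at 12h, with a negative sign in each.

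MARCO at 6h was 2.57-fold lower in the PD group (log2 −1.36, adjusted p = 0.0445), where adjusted p over the alternatives ran from 0.00265 to 0.916. The call was lost when any 1 of GS pigs 44, 55 and 77 or any 1 of the 4 PD pigs was left out. In these fits the difference was −1.42 to −1.18, and 1846 to 3413 genes were called, against 3933 with all pigs. With exon length and GC trends removed MARCO was −1.20 (adjusted p = 0.063). Against GS pigs 9 and 17 alone the difference was −0.10. C1QA was −0.63, −1.06 (adjusted p = 0.0874) and −0.53 at 0h, 6h and 12h, with calls at 6h without GS pig 17 (−1.25, adjusted p = 0.033) or pig 9 (−1.24, 0.0426) and against GS pigs 44, 55 and 77 alone (−1.53, 0.00418), and at 12h without the PD pig 2 library (−1.05, 0.0473) and with exon length and GC trends removed (−0.76, 0.0324). C1QC was −0.04, −0.35 and −0.17. Against GS pigs 9 and 17 alone at 6h the direction turned, with 0.30 for C1QA (adjusted p = 0.688) and 0.69 for C1QC (0.324). MSR1 was the member with the largest positive difference at 6h and 12h, at 1.0004 (adjusted p = 0.108) and 0.98 (adjusted p = 0.127), over alternatives from 0.0505 to 0.627 and from 0.0825 to 0.322. It was 0.30 at 6h with exon length and GC trends removed, and 0.63 at 12h without the PD pig 2 library. CD163, MRC1, SIGLEC1 and VSIG4 differed by −0.82 to 0.62, with adjusted p of 0.162 or more, though MRC1 was called at 0h without GS pig 9 (0.92, adjusted p = 0.031) and, against GS pigs 44, 55 and 77 alone, at 0h (1.08, 0.0229) and 6h (1.26, 0.0314). With exon length and GC trends removed the direction of SIGLEC1 turned, from −0.39, −0.45 and −0.49 to 0.40, 0.56 and 0.31. The PD lungs had also been sampled for an earlier study, while the GS lungs were a new set. The libraries of both groups differed at 0h in depth, in the exon length trend and in the sums of epithelial and neutrophil markers given above. The 6 markers of endothelium summed to 1907 to 2690 CPM in the GS group at 0h and to 1202 to 1713 CPM in the PD group. Of these 6, 1 was called higher in the PD group and 3 lower, where 40.6% of all genes were called. Of 5 tested markers of red cells and platelets, 2 were called higher in the PD group at 0h, HBB by 4.96 log2 units, and 2 lower. With GS counts thinned to the median PD total the same members were called at each time, and with exon length and GC trends removed CD68 was −2.37, −2.03 and −2.75 and was called at each time. The part of the marker sums in the level differences was not tested, and group and batch cannot be told apart.

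The 3 chains of C1q correlated over libraries, with r of log2 CPM of 0.982 in the GS group (15 libraries of 5 pigs) and 0.922 in the PD group (12 libraries of 4 pigs) between C1QA and C1QC, 0.973 and 0.911 between C1QA and C1QB, and 0.93 and 0.821 between C1QB and C1QC. Libraries of a pig share the animal, so these values are descriptions. MARCO followed C1QA with r = 0.876 and 0.898. CD163 followed MRC1, with r = 0.674 and 0.573, and was opposite to SIGLEC1 in the GS group, with r = −0.67, but not in the PD group, with r = 0.40. MRC1 and C1QA were opposite in the GS group, with r = −0.795, and had r = −0.128 in the PD group. MSR1 and CD68 had r = 0.872 in the GS group and −0.043 in the PD group.

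Although the chains moved together within a group, their proportions differed between the groups. Counts of C1QB per count of C1QC were 1.05 ± 0.17 in the GS group (SD, 15 libraries, 0.76 to 1.25) and 0.485 ± 0.099 in the PD group (SD, 12 libraries, 0.320 to 0.654), with no overlap. These libraries come from 5 and 4 pigs. The level of C1QB did not overlap at 0h either, which held for 34.2% of all genes. No share of other gene pairs with such a ratio is given here, so it is a description only. C1QC itself was 888, 1166, 1829, 849.5 and 873 CPM in GS pigs 9, 17, 44, 55 and 77 at 0h and 1174, 1257, 727.5 and 1093 CPM in PD pigs 2, 3, 4 and 5, and these ranges overlapped. At 0h the ratio was 1.09 ± 0.18 (SD, n = 5) and 0.452 ± 0.075 (SD, n = 4). Counts of C1QA per count of C1QC were 0.779 (0.626 to 0.952) in the GS group and 0.530 (0.433 to 0.724) in the PD group, where the ranges overlapped. Counts of C1QA per count of C1QB were 0.750 (0.642 to 0.899) and 1.11 (0.765 to 1.35). The lower level of C1QB in the PD group was thus not shared in size by C1QC, and the ratio was already apart at 0h, before perfusion. The RefSeq exon lengths of C1QB, C1QC and C1QA are 1166, 1298 and 1548 bases, and the share of GC is 59.7%, 57.8% and 60.9%. With the trends of exon length and GC content removed from each library, the level difference of C1QB was −1.66, −1.42 and −1.59 at 0h, 6h and 12h (adjusted p = 0.00291, 0.0111 and 0.00216), and that of C1QC was −0.41, −0.20 and −0.56 (adjusted p = 0.299, 0.683 and 0.0927).

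**Figure D5:**
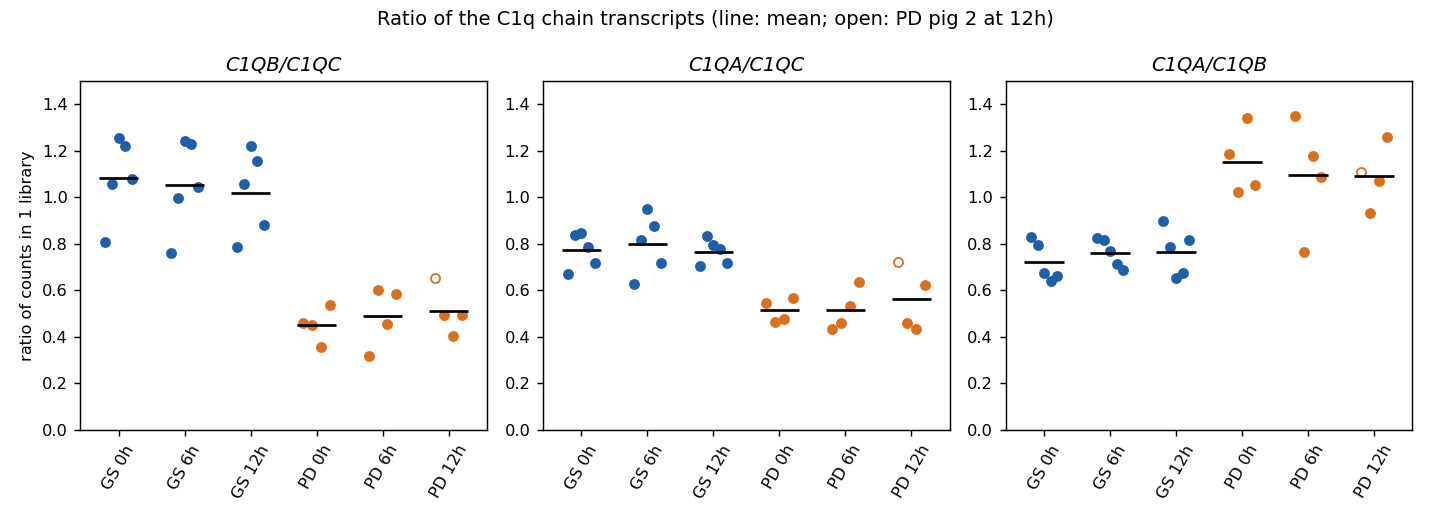
Ratio of counts of C1QB to C1QC, C1QA to C1QC and C1QA to C1QB in each library by group and time (linear axis from 0; black lines: group means; open: PD pig 2 at 12h). The C1QB to C1QC ratio lies between 0.76 and 1.25 in the GS group and between 0.320 and 0.654 in the PD group.

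The other genes of the same pathways were read from lists. Of 18 macrophage lineage genes tested outside the members, 1 was called higher and 2 lower in the GS group at both times, where 11.1% of all genes were called at 6h and 15.7% at 12h. CD14, the co-receptor for lipopolysaccharide, rose by 1.28 at 6h (adjusted p = 0.00159) and 1.60 at 12h (0.000292). The chemokine receptor genes CX3CR1 and CCR2 fell, with log2 fold changes of −2.85 (0.00253) and −3.26 (0.000955) for CX3CR1 and of −1.12 (0.00203) and −1.39 (0.000386) for CCR2. In the PD group, where 0.142% of all genes were called at 6h and 5.98% at 12h, no gene of this list was called at 6h, and CX3CR1 alone was called at 12h, at −3.39 (0.0281). Of 8 alveolar macrophage genes, INHBA, a subunit of activin A, rose in the GS group by 1.69 (0.00564) and 1.71 (0.00369), and none was called in the PD group. Of 8 interstitial or perivascular macrophage genes, F13A1, a clotting factor subunit made by macrophages, rose in the GS group at 12h by 1.32 (0.0452), and none was called in the PD group. The median log2 fold change at 12h in the GS and PD groups was −0.14 and −0.46 for the lineage list, 0.19 and 0.03 for the alveolar list, and 0.02 and −0.25 for the interstitial list.

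The lists around the members' functions are to be read against the same shares of all genes called, 11.1% and 15.7% in the GS group and 0.142% and 5.98% in the PD group. Of 14 other scavenger receptors, CD207, the langerin of Langerhans cells, fell in the GS group at 12h by 1.16 (adjusted p = 0.0286) and none was called in the PD group. Of 18 genes of apoptotic cell uptake, ABCA1, a cholesterol exporter, rose in the GS group at 12h by 1.22 (0.00193) and none was called in the PD group. Of 10 neighbours of C1q in the C1 complex and the classical pathway, none was called over time in the GS group, while C1QBP, a protein that binds C1q and resides mainly in mitochondria, rose by 1.45 (0.0323) and C5AR1, the receptor of C5a, fell by 1.80 (0.0253) in the PD group at 12h. Of 14 genes that handle hemoglobin and heme, SLC40A1, the iron exporter ferroportin, fell in the GS group by 1.45 at 6h (0.0136) and 1.13 at 12h (0.0383) and in the PD group at 12h by 2.65 (0.0425). BACH1, a repressor that heme binds, rose in the GS group by 1.01 (0.00556) and 1.26 (0.00109) and in the PD group at 12h by 1.76 (0.0447). CD163, the hemoglobin receptor to which this list belongs, was not called in either group. These adjusted p are from edgeR's quasi-likelihood test over all genes tested.

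Between the groups, the lists of macrophage genes were called in both directions. Of the 18 lineage genes, 2 were higher and 4 lower in the PD group at 0h, 3 higher and 5 lower at 6h, and 2 higher and 3 lower at 12h, against 40.6%, 24.3% and 20.1% of all genes called. The lineage genes with the largest differences at 0h were AIF1 (2.09, adjusted p = 7.59e-05) and FCGR1A (1.83, 0.00108), which were higher in the PD group, and CD4 (−1.69, 0.00142) and CSF1R (−1.63, 0.00106), the receptor of the macrophage growth factor CSF1, which were lower. The median difference of this list was −0.40, −0.33 and −0.75. Of the 8 alveolar macrophage genes, 3 were higher and 1 lower at 0h, and 2 higher and 1 lower at 6h and at 12h. FABP4, a fatty acid binding protein, was higher in the PD group by 4.29, 5.03 and 4.20 log2 units at 0h, 6h and 12h (adjusted p = 4.3e-05, 0.00945 and 0.00776), as was CD9, a tetraspanin, by 1.38 to 1.84 (adjusted p from 0.00022 to 0.0121), and FABP5 was higher at 0h (1.16, 0.0208). TGM2 was lower at 0h and 6h (−1.92 and −1.14, adjusted p = 0.000321 and 0.0449) and CHI3L1 was lower at 12h (−2.62, adjusted p = 0.0268). Of the 8 interstitial genes, 3 were higher and 1 lower at 0h and at 6h, and 1 was higher at 12h. FOLR2, a folate receptor of interstitial macrophages, was higher by 1.92, 1.12 and 1.97 (adjusted p = 0.000758, 0.0248 and 0.0468), while F13A1 was lower at 0h (−1.23, adjusted p = 0.0413) and STAB1, another scavenger receptor, at 6h (−1.05, 0.0347). Of the 10 neighbours of C1q, 2 were higher and 4 lower at 0h, 0 higher and 6 lower at 6h, and 1 higher and 3 lower at 12h. C1QBP was higher in the PD group at 0h (0.99, adjusted p = 0.000622) and 12h (1.62, 0.00391), and CALR, the chaperone calreticulin, at 0h (0.94, 0.0146). The complement receptor genes C3AR1 (−3.61, −2.09 and −2.20) and C5AR1 (−0.82, −1.18 and −2.07) were lower in the PD group at all 3 times, with adjusted p from 0.00212 to 0.0432, as was ITGAM (−1.13, −1.18 and −1.51), a chain of complement receptor 3, with adjusted p from 0.00451 to 0.0194. At 0h, 0 of 14 other scavenger receptors were higher and 3 lower, 3 of 18 genes of apoptotic cell uptake were higher and 4 lower, and 2 of 14 genes of hemoglobin and heme handling were higher and 2 lower. At 6h these lists had 2 higher and 5 lower of 13 tested, 2 higher and 1 lower of 18, and 0 higher and 2 lower of 14, and at 12h 0 higher and 1 lower of 14, 1 higher and 2 lower of 18, and 0 higher and 2 lower of 14.

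For 9 of the members, the genes outside the 10 members whose log2 CPM followed theirs most closely in both groups were listed by the lower of the r in the GS group (15 libraries) and in the PD group (12 libraries). CFP, which encodes properdin of the alternative complement pathway, was nearest to C1QA, with r = 0.905 and 0.930, and TBXAS1, thromboxane A synthase, was nearest to C1QC, with r = 0.858 and 0.860. PLVAP was nearest to C1QB (0.923 and 0.882) and BIRC5 to MARCO (0.850 and 0.818). ATP6V1G3 was nearest to SIGLEC1 (0.864 and 0.907), with the macrophage gene AIF1 also among its nearest (0.872 and 0.818). The nearest genes were NDUFV2 for CD163 (0.828 and 0.811), RSU1 for CD68 (0.922 and 0.858), STK17A for MSR1 (0.757 and 0.745) and PLCG2 for VSIG4 (0.723 and 0.845). These values describe the libraries, which share pigs, depth and composition.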

How the data were processed

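Total mRNA of 27 pig lung biopsies was sequenced from stranded libraries. Per the labels and the study's methods, RNA was extracted by 2 routes, depending on how a biopsy was kept, and which library had which is not given in the sources used here. The deposited values are raw gene counts. Per the submitters' processing notes, the tools were bcl2fastq 2.2.18.12, cutadapt 1.15, TopHat2 2.0.14, featureCounts (Subread 1.6.0) and DESeq2 1.18.1, on Sscrofa11.1. Whether counting used the strand, and how reads with several places were counted, is not given in the sources used here.

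The counts as deposited were analysed in R 4.3.3 with edgeR 4.0.16 (limma 3.58.1), after filterByExpr and TMM scaling, with robust quasi-likelihood F tests, two-sided, and Benjamini-Hochberg adjustment over all genes tested. Changes over time were fitted in each group with pig as a block, the interaction of group and time over all 27 libraries with pig as a block, and levels at each time over its 9 libraries. Calls over time needed a fold change of 2 or more beside an adjusted p under 0.05, and other calls the adjusted p alone. CPM were scaled by TMM, and log2 CPM had a prior count of 0.5. This step was tested on simulated data with 200 changed genes, each planted at 2 or 3 log2 units up or down. At 12h against 0h, 181 were recovered in the GS group with 5 false calls, and 109 in the PD group with 3. For the interaction at 12h 114 were recovered with 3 false calls, and for levels at 0h 167 with 19. The planted changes were larger than any fitted change of a member over time, and differences between pigs were not simulated. The recovery of changes of the members' size was not tested.

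Pigs are pairs by design, since the biopsies of 1 number come from the same animal. Residuals of libraries of the same pig correlated with mean r = 0.513 in the GS group and 0.112 in the PD group, against −0.154 and −0.123 between pigs. No 2 libraries were duplicates (smallest chi-square per degree of freedom 29.9). Promoters, exon lengths and GC content came from RefSeq on Sscrofa11.1, the assembly of the counts, and 84% of 17884 genes had both values. Alternatives were fits without the block, with 2 time points, over all 27 libraries, with DESeq2 1.42.0 and its size factors, without the filter, with GS counts thinned to the median PD total, and without each pig, and for the interaction exact Wilcoxon and permutation tests of log2 ratios per pig. Those on exon length and GC, without the PD pig 2 library at 12h and within sets of GS pigs were chosen after seeing the data. For changes over time, the alternatives also counted the main fit without the fold threshold, whose log2 fold changes and adjusted p are the main ones. For levels at 12h, the fits without PD pig 2 and without its 12h library are the same. The tallies of alternatives thus hold values that could not differ. The members, the gene lists and the tests were chosen with earlier results of these data known. Every member is named, and of each list at most 3 called genes with the largest change in each direction were eligible to be named. The genes most similar to 1 member are not reported here.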

Additional observations from a re-analysis of the deposited data

Results flagged for a closer look

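In each group of 4 or 5 pigs, the highest or lowest value was compared with its nearest neighbour over the range of the group (Dixon's test at 95%). Of 100 groups tested, 10 had a value that stood apart, where independent groups would give about 1 in 20 by chance. The groups are not independent, because the ratios reuse the levels and members correlated, so these rates cannot be compared. The values below are log2 CPM or log2 ratios.

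In the PD group, pig 2 stood above the other 3 pigs at 6h for MRC1 (8.87, the next pig at 7.65) and VSIG4 (8.37, the next at 7.16), and its CD163 ratio of 6h to 0h was 0.78, the next being −0.60. Pig 3 stood below the others for MARCO at 6h (8.02, the next at 8.84). Pig 4 stood below the others at 0h for C1QA (8.44, the next at 9.19) and C1QB (8.02, the next at 9.08). The MRC1 ratio of 12h to 0h in pig 4 was 0.0193, where the other 3 pigs ran from −1.09 to −0.98.

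In the GS group, pig 44 stood above the others at 0h for C1QA (10.58, the next at 9.61) and C1QB (10.92, the next at 10.06), and pig 9 stood above the others at 12h for MRC1 (8.59, the next at 7.40).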

How the results depend on the processing

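Over 1680 alternative values of the members, 1497 kept the sign of the reported value and 183 changed it, the largest of these being 0.872 in size. Of the calls of single members, 21 were gained and 15 lost. C1QB at 6h in the GS group, −0.03 and not called, turned to 0.52 with pigs 44, 55 and 77 only. There its adjusted p was 0.046 but its fold change under 2, and 2760 of 18919 genes were called. The number of members called at 6h in the GS group (0) was 1 with pigs 9 and 17 only, where 876 of 17339 genes were called, against 2057 of 18594. At 12h in the GS group (0) it was 1 without the fold threshold, 1 with pigs 9 and 17 only, and 0 to 1 when a pig was left out. Over all genes 7136 of 18594 were called without the fold threshold and 1324 of 17339 with pigs 9 and 17 only. Without pig 55, where the 1 member was called, 2191 of 18423 genes were called, against 2911 of 18594 with all pigs. At 12h in the PD group (0) it was 1 in the fit over all 27 libraries, 1 with exon length and GC trends removed, 1 without the PD pig 2 library at 12h, and 0 to 1 when a pig was left out, each time SIGLEC1. Of members that differed in level at 0h (2), 1 was left with GS pigs 9 and 17 only, and 2 to 3 were called when a pig was left out. At 6h (3) there were 5 with GS pigs 44, 55 and 77 only, 0 with pigs 9 and 17 only, 2 with exon length and GC trends removed and 1 to 4 when a pig was left out. At 12h (1) there were 2 in the fit over all libraries, 3 with exon length and GC trends removed, 3 without the PD pig 2 library, 0 with GS pigs 9 and 17 only and 1 to 3 when a pig was left out. At 12h 5611 of 17884 genes were called in the fit over all libraries and 3058 of 14376 with the trends removed. The calls over all genes moved too. For levels at 6h they were 5674 of 15897 with GS pigs 44, 55 and 77 only and 1096 of 16288 with pigs 9 and 17 only, against 3933 of 16201. With the trends removed they were 2389 of 14326 at 6h. At 12h they were 4982 of 16925 without the PD pig 2 library and 0 of 15647 with GS pigs 9 and 17 only, against 3308 of 16431, so the 0 members called there say nothing about the members. At 0h they were 2321 of 16303 with pigs 9 and 17 only, against 6687 of 16477. Over 12h in the PD group they were 3300 of 17884 in the fit over all libraries and 2366 of 14076 with the trends removed. The causes were not tested.

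Without the replicate block of pigs, SIGLEC1 at 12h was −0.84 in the GS group (adjusted p = 0.188) and −0.89 in the PD group (adjusted p = 0.182), so the GS value no longer passed the adjusted p, and the block changed no other call of a member. Over all genes, leaving out the block moved the count at 6h in the GS group from 2057 to 1123, at 12h from 2911 to 1896, and in the PD group from 22 to 100 at 6h and from 930 to 1460 at 12h. DESeq2 called 408 and 2518 genes in the PD group at 6h and 12h, and the 2 time points alone gave 4 at 12h. Every member had at least 392 counts in every library. Totals were lower in the PD group, and what depth limits there cannot be told apart from the group.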
